A study of Homo sapiens with 6 samples.

Results

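Transcripts of 10 genes that encode secreted chemokines and inflammatory cytokines were followed across 6 libraries of CAL51 cells with and without TREX1 knockout. The genes were CXCL1, CXCL2, CXCL3, CXCL8, CCL20, CXCL16, IL6, IL18, LIF and CSF1, chosen by symbol with earlier results of these data known. All 10 had a row among the 14788 genes of the expression table, and all 10 passed the filter on low values that left 13765 genes for testing. CAL51 is a human cell line from a triple-negative breast carcinoma, and TREX1 is the main exonuclease that degrades DNA in the cytosol. The 3 groups, of 2 libraries each, were a control that the labels do not describe further, TREX1 KO-1 and TREX1 KO-2. Each knockout group was made with its own guide RNA in a CRISPR v2 lentivirus, and the deposited read-me file speaks of multiple knockout clones without tying a clone to a library. The sources used here give no treatment or time for any group and do not say whether the control carried a lentivirus or a guide. Replicates are not described as separate cultures, and the p-values therefore measure the spread between these libraries alone, which may be technical. TREX1 itself was not analysed here, so the labels were not checked against the targeted gene.

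Chemokines are small secreted proteins that direct the movement of leukocytes through G protein-coupled receptors. CXCL1, CXCL2, CXCL3 and CXCL8 carry a Glu-Leu-Arg motif and attract neutrophils through CXCR2, and CXCL8 also acts through CXCR1. CCL20 attracts CCR6-bearing lymphocytes and dendritic cells, while CXCL16 is made as a membrane-bound ligand of CXCR6 that is shed by ADAM10. IL6 and LIF signal through the shared receptor subunit IL6ST (gp130) and STAT3, IL18 is released from a precursor cut by caspase-1, and CSF1 sustains macrophages through CSF1R. In epithelial tumour cells NF-kB and AP-1 are textbook activators of many of these genes, and AUUUA elements in the 3′ ends of several of the mRNAs make them short-lived.

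Expression values are log2 CPM, the log2 of read counts that the authors scaled by library. Depth, recovered from the values as whole reads, ran from 13222933 to 25785055 reads a library. KO-2 replicate 1 was the shallowest, held 61 genes without a read where the other 5 libraries held 5 to 16, and the KO-2 replicates differed from each other by more than those of the other groups did (chi-square per degree of freedom 8.54, against 3.68 for control and 3.01 for KO-1). Of 7 markers of the line's epithelial and mesenchymal character, KRT8, KRT18, KRT19, EPCAM, CDH1, VIM and EGFR, all had rows, and their summed level was 1958 to 2015 CPM in control and 2399 to 2457 CPM in the knockout libraries. Of 22 markers of leukocytes, endothelium, red cells and fibroblasts 8 had rows and none of these was at 0 reads in any library. The fibroblast marker PDGFRB was the highest of them, at log2 CPM 5.19 to 5.53, and the leukocyte marker PTPRC stood at 3.95 to 4.35. The summed level of those 8 was 86.3 to 90.9 CPM in control, 81.4 to 83.9 in KO-1 and 80.7 to 84.9 in KO-2. None of the 7 tested rose. CDH5, an endothelial cadherin, had a log2 fold change of -0.48 with KO-2 (adjusted p = 0.038) and -0.31 with KO-1 (0.12). For the mean of both guides it was -0.40 ± 0.12 (adjusted p = 0.030), a call lost with library medians set equal (0.051), with quantile normalization (0.052), without the variance trend (0.053), and when control replicate 1 (0.33), control replicate 2 (0.094) or KO-1 replicate 2 (0.097) was left out.

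The sequences of CXCL1, CXCL2 and CXCL3 are shown because near-identical copies can share reads, which bears on every value given for them. Bases 25 to 324 of the coding sequences, each 324 bases long, are given from GENCODE release 29 (GRCh38), and capitals mark the 30 positions in this stretch that are not the same in all 3 genes.
CXCL1 coding sequence: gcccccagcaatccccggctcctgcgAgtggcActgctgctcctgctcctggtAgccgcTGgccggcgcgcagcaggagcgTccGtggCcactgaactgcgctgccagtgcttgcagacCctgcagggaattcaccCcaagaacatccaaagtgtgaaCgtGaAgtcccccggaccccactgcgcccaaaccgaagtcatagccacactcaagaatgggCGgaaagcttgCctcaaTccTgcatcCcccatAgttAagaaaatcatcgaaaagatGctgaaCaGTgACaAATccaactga
CXCL2 coding sequence: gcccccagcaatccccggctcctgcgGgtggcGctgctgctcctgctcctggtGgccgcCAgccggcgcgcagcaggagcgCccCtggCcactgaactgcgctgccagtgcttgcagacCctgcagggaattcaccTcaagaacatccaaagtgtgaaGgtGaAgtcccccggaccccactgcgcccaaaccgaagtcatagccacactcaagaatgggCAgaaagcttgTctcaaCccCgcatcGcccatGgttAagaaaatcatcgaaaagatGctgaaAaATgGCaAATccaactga
CXCL3 coding sequence: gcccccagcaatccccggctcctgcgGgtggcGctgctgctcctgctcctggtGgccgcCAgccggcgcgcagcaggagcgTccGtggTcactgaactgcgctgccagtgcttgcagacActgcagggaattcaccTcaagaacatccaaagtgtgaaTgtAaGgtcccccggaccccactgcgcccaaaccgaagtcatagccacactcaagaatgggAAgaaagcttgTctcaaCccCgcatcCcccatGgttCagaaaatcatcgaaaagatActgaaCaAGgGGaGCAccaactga
Identity between the coding sequences was 94.4% for CXCL2 and CXCL3, 93.5% for CXCL1 and CXCL2 and 90.7% for CXCL1 and CXCL3. CXCL8, which was also followed here and also carries the Glu-Leu-Arg motif, was 50.5% to 52.9% identical to these 3. Over the whole coding sequence 34 positions were not shared. At 17 of them CXCL1 differed from both others, at 5 CXCL2 did and at 14 CXCL3 did. The longest run shared by all 3 was 55 bases (bases 189 to 243 of the CXCL1 coding sequence), and CXCL2 and CXCL3 shared a run of 97. Over whole transcripts, 5.73% of 50-base windows of CXCL1, 9.24% of CXCL2 and 5.26% of CXCL3 occurred in another of these transcripts, but 0 of the 100-base windows did. The sources used here do not give the read length or the handling of multiply mapped reads, so reads of these 3 genes are uncertain at the shared stretches.

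Among the genes followed here, the 4 described above as neutrophil-attracting lie together on chromosome 4 (GRCh38). CXCL8 is at chr4:73740506-73743716 (plus strand), CXCL1 at chr4:73869393-73871242 (plus strand), CXCL3 at chr4:74036589-74038807 (minus strand) and CXCL2 at chr4:74097035-74099293 (minus strand). They span 358.787 kb from the start of CXCL8 to the end of CXCL2. The other 6 are on separate chromosomes. These are CCL20 at chr2:227805739-227817564 (plus strand), CXCL16 at chr17:4733526-4739922 (minus strand), IL6 at chr7:22725884-22732002 (plus strand), IL18 at chr11:112143251-112164117 (minus strand), LIF at chr22:30240447-30246851 (minus strand) and CSF1 at chr1:109910242-109930992 (plus strand).

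Promoter sequence is shown for the 6 genes found in the RefSeq promoter table (GRCh38.p14), since these genes were all higher in the knockout libraries. CXCL16, IL18, LIF and CSF1 had no entry. The 150 bases before each RefSeq transcript start are given 5′ to 3′ on the gene's strand. Capitals mark matches to the kappaB motif GGGRNNYYCC (the NF-kB site) or to the AP-1 motif TGANTCA, each searched on both strands. In these motifs R is A or G, Y is C or T, and N is any base. The windows are chr4:73869243-73869392 for CXCL1, chr4:74099196-74099345 for CXCL2, chr4:74038690-74038839 for CXCL3, chr4:73740419-73740568 for CXCL8, chr2:227813692-227813841 for CCL20 and chr7:22727050-22727199 for IL6.
CXCL1 upstream sequence: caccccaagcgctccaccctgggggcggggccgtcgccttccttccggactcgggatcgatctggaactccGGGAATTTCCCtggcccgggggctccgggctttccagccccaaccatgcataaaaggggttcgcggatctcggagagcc
CXCL2 upstream sequence: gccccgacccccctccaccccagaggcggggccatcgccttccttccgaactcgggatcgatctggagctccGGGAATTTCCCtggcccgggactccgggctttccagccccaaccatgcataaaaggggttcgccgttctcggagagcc
CXCL3 upstream sequence: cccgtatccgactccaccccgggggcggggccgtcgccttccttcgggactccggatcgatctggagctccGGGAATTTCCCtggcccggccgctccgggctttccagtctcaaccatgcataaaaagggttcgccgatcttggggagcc
CXCL8 upstream sequence: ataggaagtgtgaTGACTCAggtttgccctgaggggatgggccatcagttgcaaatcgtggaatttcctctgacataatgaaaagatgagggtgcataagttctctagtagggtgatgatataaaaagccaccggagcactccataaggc
CCL20 upstream sequence: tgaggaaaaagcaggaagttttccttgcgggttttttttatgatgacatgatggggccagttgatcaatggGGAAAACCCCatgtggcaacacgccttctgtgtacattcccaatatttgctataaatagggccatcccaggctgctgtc
IL6 upstream sequence: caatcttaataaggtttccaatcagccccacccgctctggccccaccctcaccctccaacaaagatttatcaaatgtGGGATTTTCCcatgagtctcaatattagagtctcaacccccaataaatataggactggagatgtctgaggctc
CXCL1, CXCL2 and CXCL3 hold the same 11 bases, GGGAATTTCCC, in which a match on each strand overlaps the other, beginning 79, 78 and 79 bases before the start. CCL20 has a match on the minus strand beginning 79 bases before the start, and IL6 has one on the plus strand beginning 73 bases before it. CXCL8 had an AP-1 match, TGACTCA, beginning 137 bases before the start, and no kappaB match to the letters searched. Its sequence does hold tggaatttcc, which departs from the kappaB motif only in the first letter. The lack of a match therefore does not mean that CXCL8 lacks an NF-kB site. Over windows of 300 bases (250 before the start to 50 after), 11.3% of all 35116 windows in the table held a kappaB match and 7.71% an AP-1 match, and the shares were 13.6% and 5.19% in the 15701 windows of tested genes. The 250 bases upstream were 81.4% identical between CXCL1 and CXCL3, 73.3% between CXCL2 and CXCL3 and 67.9% between CXCL1 and CXCL2, so the matches of these 3 genes lie in related sequence and are not independent. The other pairs were 39.7% to 48.7% identical. A match is a description of letters, and binding was not measured.

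Against control, all 10 genes were higher with KO-1 and for the mean of both guides, and 9 of 10 with KO-2, by log2 fold changes of 0.50 to 2.11. CXCL1 and CXCL8 changed most, at 3.48-fold and 3.46-fold for both guides, and CCL20 followed at 2.8-fold. CXCL16 changed least, at 1.42-fold. Calls rest on a limma fit, with p adjusted by Benjamini-Hochberg across all tested genes and a threshold of 0.05, and SE is the standard error from that fit. For both guides 14.6% of all tested genes were called higher and 14.9% lower, with KO-1 14.6% and 15.1%, and with KO-2 8.73% and 8.19%. Of all genes 7.29% were called higher with each guide, and 9 of the 10 were among them. In all 10 the 4 knockout libraries lay above both control libraries, as they did in 22.3% of all genes. The median log2 fold change of the 10 genes was 1.05 for both guides, 1.22 with KO-1 and 0.82 with KO-2, beside -0.01, -0.00 and -0.02 over all genes tested. Genes called higher with a log2 fold change of at least 0.5 made up 3.76% of all genes for both guides, and all 10 were among them. The planned call had no minimum fold. The smallest of the 10 changes, 0.51 for CXCL16, lay just above this cut, so that count depends on where the cut was set. The 10 genes were chosen with earlier results of these data known. Their counts and medians beside those of all genes are therefore a description and no test of the set. KO-1 and KO-2 were compared with the same control libraries, so their fold changes are not independent of each other. In bulk RNA a larger share of cells expressing a gene and more RNA per cell cannot be told apart.

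**Figure D1:**
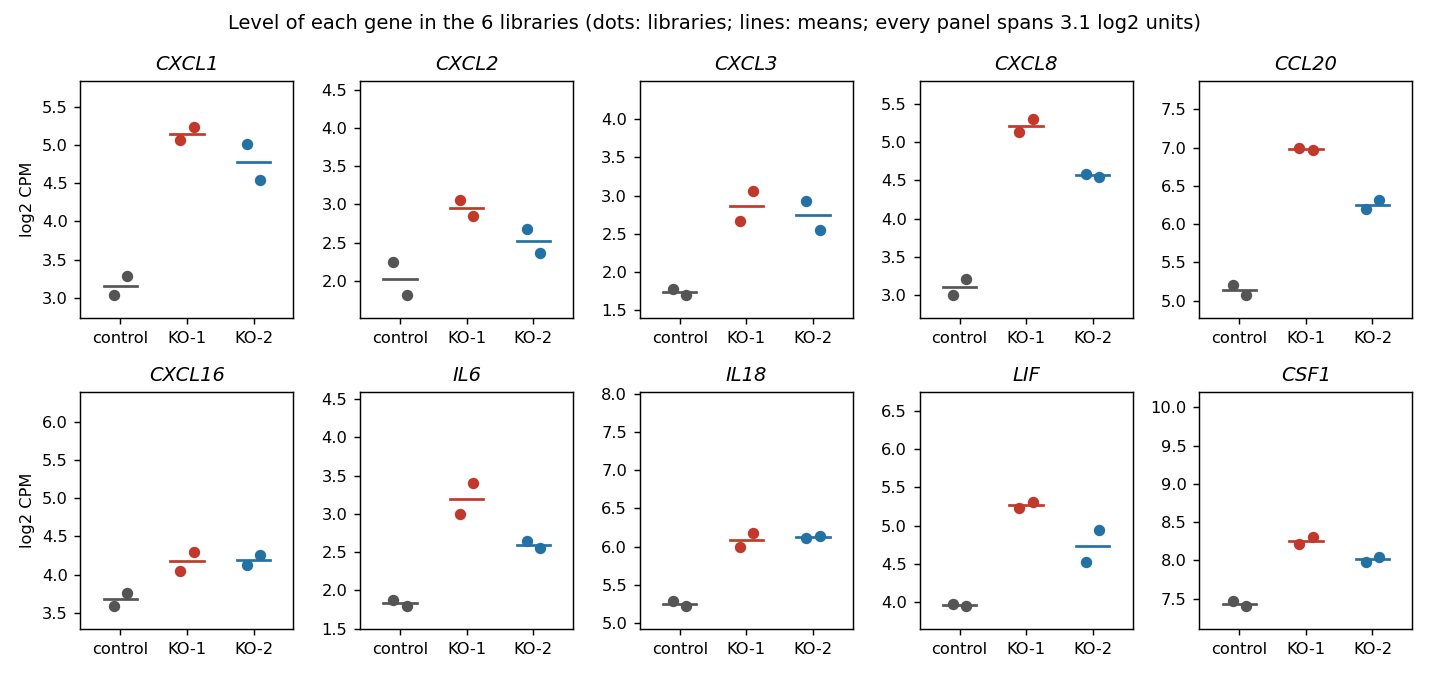
Level of each of the 10 genes in the 6 libraries, on the y axis as log2 CPM, by group on the x axis (dots are libraries, lines are means of 2, and every panel spans the same number of log2 units). For every gene the 4 knockout dots lie above both control dots, by the widest gap for CXCL8 (1.35) and the narrowest for CXCL2 (0.13).

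CXCL1, a neutrophil attractant, stood at log2 CPM 3.04 and 3.29 in the control libraries, 5.06 and 5.23 in KO-1, and 5.01 and 4.54 in KO-2. The lowest knockout library lay 1.25 above the highest control library. CXCL1 rose by 1.80 ± 0.14 for both guides (SE, adjusted p = 1.5e-05), 1.98 ± 0.16 with KO-1 (1.9e-05) and 1.61 ± 0.16 with KO-2 (0.00022). Its reads ran from 189 to 688 a library, and the SD between KO-2 libraries, 0.34, was the largest among its groups.

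CXCL8, which encodes interleukin-8, had log2 CPM 3.0 and 3.2 in control, 5.13 and 5.30 in KO-1, and 4.59 and 4.55 in KO-2. Here the groups formed 3 separate steps with no overlap, and the gap between control and knockout libraries, 1.35, was the widest of the 10 genes. CXCL8 rose by 1.79 ± 0.11 for both guides (SE, adjusted p = 3.4e-06), 2.11 ± 0.12 with KO-1 (3.0e-06) and 1.47 ± 0.12 with KO-2 (8.3e-05).

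CXCL2 and CXCL3, the close copies of CXCL1, were expressed at lower levels and with more scatter. CXCL3 had log2 CPM 1.78 and 1.70 in control, 2.67 and 3.07 in KO-1, and 2.93 and 2.55 in KO-2, from 78 to 152 reads a library. The KO-1 and KO-2 values of CXCL3 interleave, and all 4 lie above control. CXCL3 rose by 1.06 ± 0.19 for both guides (SE, adjusted p = 0.0020), 1.13 ± 0.22 with KO-1 (0.0031) and 1.00 ± 0.22 with KO-2 (0.012). The KO-2 call was lost without control replicate 1 (adjusted p = 0.088) or 2 (0.097) and the KO-1 call without KO-1 replicate 2 (0.052).

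CXCL2 had log2 CPM 2.24 and 1.81 in control, 3.05 and 2.84 in KO-1, and 2.68 and 2.37 in KO-2, from 82 to 136 reads. Its control libraries were 0.43 apart, and the lowest knockout library lay only 0.13 above the higher of them. CXCL2 rose by 0.71 ± 0.19 for both guides (SE, adjusted p = 0.016) and by 0.92 ± 0.22 with KO-1 (0.0088). With KO-2 its log2 fold change was 0.50 ± 0.22 (adjusted p = 0.14), the only one of the 10 not called there, with a 95% interval of 0.02 to 0.97. Leaving out control replicate 2 (adjusted p = 0.23) or KO-1 replicate 1 (0.067) ended the call for both guides, and also the KO-1 call (0.11 and 0.092), while the KO-2 value was called without KO-2 replicate 2 (0.041). With CXCL1, CXCL2 and CXCL3 summed into 1 value, so that reads exchanged among them cancel, the log2 fold change was 1.46 ± 0.12 for both guides (SE, adjusted p = 1.8e-05), 1.63 with KO-1 and 1.29 with KO-2.

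CCL20, the ligand of CCR6, had log2 CPM 5.2 and 5.07 in control, 6.99 and 6.97 in KO-1, and 6.19 and 6.31 in KO-2. The 3 groups did not overlap and the replicates of a group lay within 0.13 of each other. CCL20 rose by 1.48 ± 0.07 for both guides (SE, adjusted p = 1.2e-06), 1.85 ± 0.08 with KO-1 (6.8e-07) and 1.12 ± 0.08 with KO-2 (5.2e-05). These values rest on 854 to 2307 reads a library.

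CXCL16, the CXCR6 ligand, had log2 CPM 3.59 and 3.76 in control, 4.06 and 4.29 in KO-1, and 4.12 and 4.26 in KO-2. The KO-1 and KO-2 values interleave, 0.29 above the higher control at the nearest. CXCL16 rose by 0.51 ± 0.12 for both guides (SE, adjusted p = 0.0082), 0.50 ± 0.13 with KO-1 (0.018) and 0.52 ± 0.13 with KO-2 (0.024). Without control replicate 1 its calls were lost for both guides (adjusted p = 0.14), KO-1 (0.16) and KO-2 (0.22), without control replicate 2 for KO-1 (0.057) and KO-2 (0.096), and without KO-1 replicate 2 for KO-1 (0.16).

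Among the genes of the gp130 cytokines, IL6 had log2 CPM 1.87 and 1.80 in control, 3.0 and 3.4 in KO-1, and 2.64 and 2.55 in KO-2, from 80 to 192 reads. The 3 groups did not overlap. IL6 rose by 1.06 ± 0.17 for both guides (SE, adjusted p = 0.0012), 1.37 ± 0.20 with KO-1 (0.00063) and 0.76 ± 0.20 with KO-2 (0.024). The KO-2 call was lost without control replicate 1 (adjusted p = 0.14) or 2 (0.16).

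LIF, leukemia inhibitory factor, had log2 CPM 3.98 and 3.95 in control, 5.23 and 5.31 in KO-1, and 4.53 and 4.95 in KO-2. The groups did not overlap, and the KO-2 libraries were 0.42 apart, with replicate 1 the lower. LIF rose by 1.04 ± 0.11 for both guides (SE, adjusted p = 0.00014), 1.31 ± 0.13 with KO-1 (7.8e-05) and 0.77 ± 0.13 with KO-2 (0.0039).

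IL18, the interleukin activated by caspase-1, had log2 CPM 5.29 and 5.23 in control, 6.0 and 6.18 in KO-1, and 6.11 and 6.14 in KO-2. All 4 knockout values sat within 0.18 of each other, above control by at least 0.71. IL18 rose by 0.85 ± 0.07 for both guides (SE, adjusted p = 2.6e-05), 0.83 ± 0.08 with KO-1 (7.1e-05) and 0.87 ± 0.08 with KO-2 (0.00020).

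CSF1, the macrophage growth factor, had log2 CPM 7.47 and 7.41 in control, 8.21 and 8.31 in KO-1, and 7.99 and 8.04 in KO-2. It had the most reads, 3306 to 5812 a library, and its groups did not overlap. CSF1 rose by 0.70 ± 0.05 for both guides (SE, adjusted p = 1.1e-05), 0.82 ± 0.06 with KO-1 (8.5e-06) and 0.58 ± 0.06 with KO-2 (0.00023). Leaving out any 1 library left CXCL1, CXCL8, CCL20, IL18, LIF and CSF1 called in all 3 comparisons with control.

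**Figure D2:**
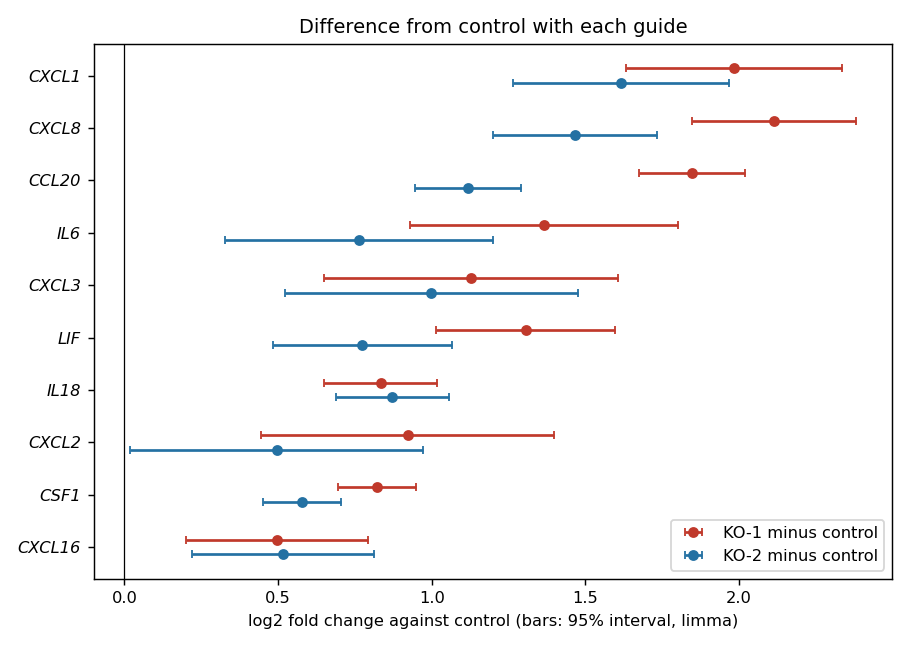
Log2 fold change against control on the x axis for each of the 10 genes, with KO-1 and KO-2 as separate points and 95% intervals from limma as bars. Both points lie above 0 for every gene, and the KO-2 interval of CXCL2 (0.02 to 0.97) comes nearest to 0.

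The authors' deposited table, which compares the same libraries, listed 10 of the 10 genes higher with KO-1 and 9 with KO-2 at a false discovery rate below 0.05, against 14.2% and 8.59% of all its rows. For CXCL2 with KO-2 the authors' deposited table gave a log2 fold change of 0.49 and a false discovery rate of 0.16.

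The size of the change differed between the KO-1 and KO-2 libraries for some of the genes. Guide, clone and culture cannot be told apart between these groups. CCL20 and CXCL8 were lower with KO-2 than with KO-1, by a log2 difference of -0.73 ± 0.08 (SE, adjusted p = 0.0052) for CCL20 and -0.65 ± 0.12 (SE, adjusted p = 0.033) for CXCL8. Over all genes 0.806% were called lower with KO-2 and 0.334% higher. The other 8 were not called. Differences for IL6 (-0.60, 95% interval -1.04 to -0.17, adjusted p = 0.16), LIF (-0.53, -0.82 to -0.24, 0.087), CSF1 (-0.25, -0.37 to -0.12, 0.071) and CXCL1 (-0.37, -0.72 to -0.02, 0.27) had intervals that excluded 0 before adjustment. The intervals of CXCL2 (-0.43, -0.90 to 0.05), CXCL3 (-0.13, -0.61 to 0.35), CXCL16 (0.02, -0.28 to 0.32) and IL18 (0.04, -0.15 to 0.22) included 0. For IL18 and CXCL16 the guides thus gave values within 0.04 of each other, although the interval of CXCL16 allows differences from -0.28 to 0.32.

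In 7 of the 10 genes both KO-1 libraries lay above both KO-2 libraries, a pattern found in 21.9% of all genes, and in 0 of the 10 was the order reversed (22.3% of all genes). The exceptions were CXCL3, CXCL16 and IL18, whose groups overlapped. The gap between the lower KO-1 and the higher KO-2 library was 0.66 for CCL20, 0.54 for CXCL8, 0.36 for IL6, 0.29 for LIF, 0.17 for CSF1 and for CXCL2, and 0.05 for CXCL1. The authors' deposited table also listed CCL20 (log2 fold change -0.73, false discovery rate 0.0011) and CXCL8 (-0.65, 0.015), and no other of the 10, as lower with KO-2.

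Calls between the guides moved with single libraries. CCL20 lost its call without KO-1 replicate 1 (adjusted p = 0.25) or 2 (0.27), and CXCL8 lost its call without either KO-1 library (0.31 and 0.42) or either control library (0.071 and 0.077). Without KO-2 replicate 1, the shallowest library, CXCL8 and CCL20 stayed lower with KO-2, and the differences were -0.61 for CXCL1 and -0.22 for CSF1. Without KO-2 replicate 2, CXCL8 and CCL20 again stayed lower, and the differences were -0.74 for LIF and -0.27 for CSF1. With 1 KO-2 library left, the fit holds no spread between KO-2 libraries, the group whose replicates differed most. Calls gained in these runs are therefore not read as differences between the guides.

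**Figure D3:**
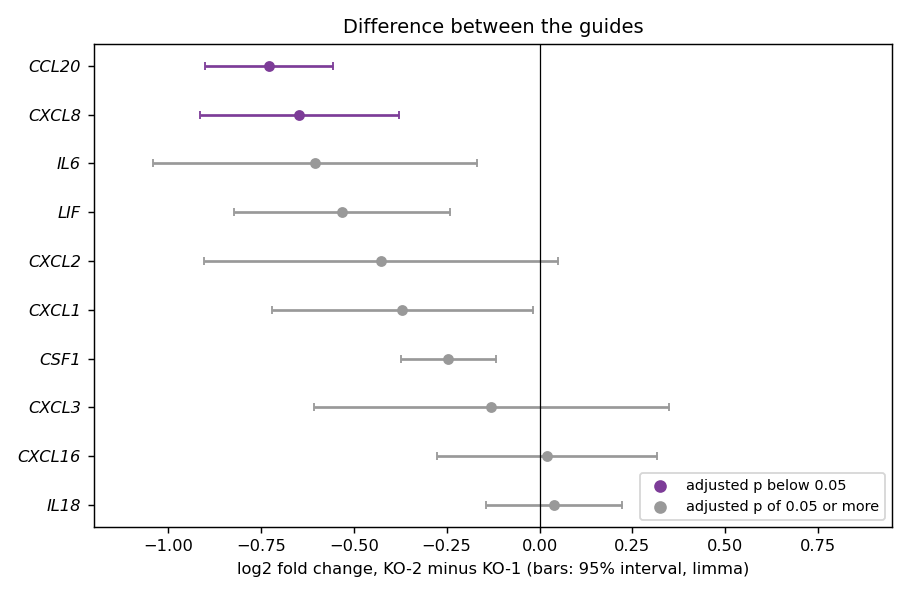
Log2 difference between KO-2 and KO-1 on the x axis for each of the 10 genes, with 95% intervals from limma as bars and the genes called at an adjusted p below 0.05 in purple. CCL20 (-0.73) and CXCL8 (-0.65) are the called genes, and IL18 and CXCL16 lie nearest to 0.

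Compared per length (CPM per kb of annotated exon sequence), CSF1 was the most abundant of the 10 transcripts in control at 32 ± 0.99 (SD, n = 2), followed by CCL20 at 22.0 ± 1.39 and IL18 at 14.5 ± 0.43. CXCL1 (6.85), CXCL16 (4.55), LIF (3.90), CXCL8 (3.74), CXCL2 (2.68), IL6 (1.67) and CXCL3 (1.46) followed on the same scale, and of these neighbours only LIF and CXCL8 overlapped between libraries. With KO-1 CCL20 moved ahead of CSF1, at 79.2 ± 0.61 against 56.6 ± 2.54 CPM per kb (SD, n = 2 each). CXCL1 at 27.3 ± 2.29 and IL18 at 25.9 ± 2.26 overlapped there, and CXCL8 at 16.3 ± 1.39 stood above LIF at 9.69 ± 0.37. With KO-2 CCL20 at 47.8 ± 2.84 and CSF1 at 47.7 ± 1.31 CPM per kb could not be ordered. IL18 followed at 26.6 ± 0.41 and CXCL1 at 21.3 ± 4.95, then CXCL8 at 10.4 ± 0.19. CXCL2, CXCL3 and IL6 were the 3 lowest transcripts per length in every group. The length was that of all annotated exons of a gene together, 2219 bases for CXCL3 and 2274 for CXCL8. The single transcripts of these genes used for sequence have 1075 and 1705 bases. The order of levels per length therefore depends on the length chosen.

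Summed over the 10 genes, the level was 308 and 298 CPM in the control libraries, 632 and 676 in KO-1, and 512 and 526 in KO-2, with the 3 groups apart. CSF1 made up 57.5% and 56.9% of that sum in control, 47.0% and 46.8% in KO-1, and 49.5% and 50.1% in KO-2. The share of CCL20 went the other way, from 11.9% and 11.2% in control to 20.1% and 18.6% in KO-1 and 14.3% and 15.1% in KO-2.

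**Figure D4:**
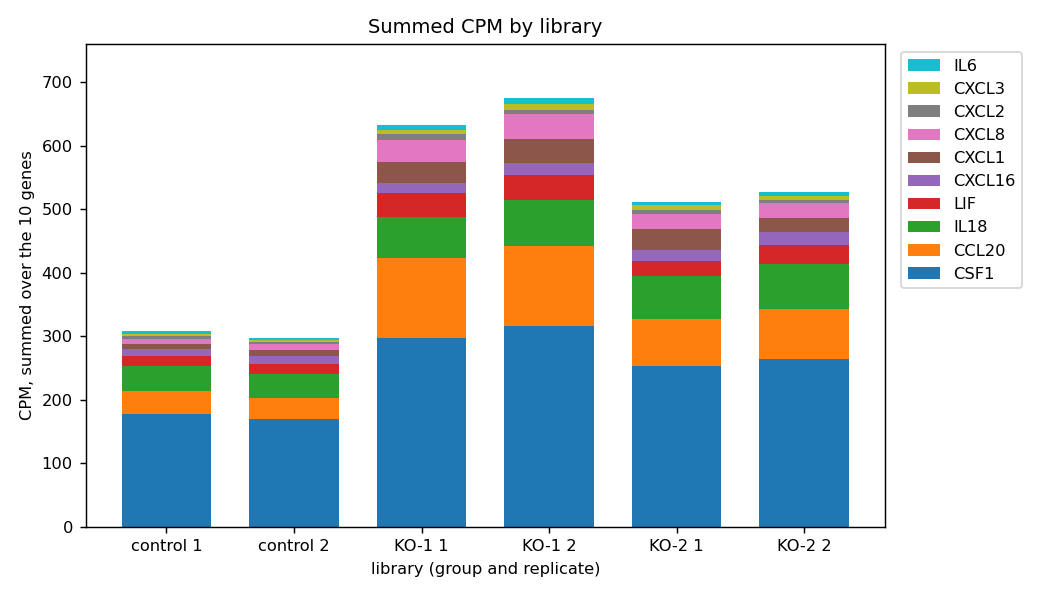
CPM of the 10 genes stacked by library on the x axis, with the y axis starting at 0. The bars reach 298 to 308 CPM in control, 632 to 676 in KO-1 and 512 to 526 in KO-2, and CSF1 (bottom) is the largest segment in each.

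Pentamers ATTTA, the core of the AU-rich elements that shorten the life of cytokine mRNAs, were counted in the annotated 3′ untranslated region of 1 transcript per gene. IL6 had 6 (14 per kb), CXCL2 10 (13.9), CXCL3 7 (10.4), CXCL8 9 (7.19), CXCL1 5 (7.08) and CCL20 3 (6.65). LIF had 7 in a long region (2.19 per kb), CSF1 4 (1.86), CXCL16 1 (1.02) and IL18 0. Thus 6 of the 10 had at least 3 per kb, beside 27.5% of 12147 tested genes with such a region and a median of 1.63 per kb. CXCL1, CXCL2 and CXCL3, close copies in coding sequence, are among those 6 and may not count as independent. The density also depends on the length of the region: by count, 42.9% of tested genes had as many as CCL20 or more. RNA stability was not measured.

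Values for the genes of other lists refer to the mean of both guides unless a guide is named, so a gene changed with 1 guide can be called. Their counts stand beside 14.6% of all genes called higher and 14.9% lower in that comparison. With 1 library left out, the genes called higher over all 13765 ran from 712 (without control replicate 1) and 825 (without control replicate 2), through 1241 and 1250 (without KO-1 replicate 1 or 2), to 2906 and 2973 (without KO-2 replicate 1 or 2), and those called lower ran from 574 to 3102 in the same order of groups. The counts of the lists with a library left out are to be read against these totals. Of 38 other chemokine genes listed, 7 had rows and 5 were tested: 2 rose, 0 fell, and the median log2 fold change for both guides was 0.33. CCL2, a monocyte attractant, had log2 CPM 0.99 and 0.90 in control, 2.56 and 2.44 in KO-1, and 1.92 and 1.67 in KO-2, from 44 to 98 reads, and rose by 1.20 ± 0.20 (SE, adjusted p = 0.0016). CX3CL1, which encodes fractalkine, rose with KO-1 by 0.64 (adjusted p = 0.0032) and had a value of 0.03 with KO-2 (0.88). The guides differed by -0.60 (KO-2 minus KO-1, adjusted p = 0.044), a call lost without either control library (0.11 and 0.11) or either KO-1 library (0.42 and 0.37). Its mean over both guides was 0.33 ± 0.11 (SE, adjusted p = 0.036), a call lost without either control library (0.11 and 0.33) or either KO-1 library (0.12 and 0.062). CXCL5 (0.25, adjusted p = 0.085) and CXCL14 (-0.59, 0.11) were not called. CXCL6 at 4 to 16 reads and CCL5 at 4 to 12 reads were under the filter. Without any 1 control or KO-1 library 1 of the 5 rose, and without KO-2 replicate 2 it was 3. None of 9 interferon ligand genes listed had a row.

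Of 55 other cytokine genes listed 18 had rows and 15 were tested, of which 4 rose and 1 fell (median 0.34). TNFSF9, the ligand of 4-1BB, rose by 0.88 ± 0.13 (SE, adjusted p = 0.00089), IL32 by 0.70 ± 0.11 (0.0012) and IL1A, which encodes interleukin-1 alpha, by 1.54 ± 0.35 (0.0073). IL1A rested on 12 to 48 reads and lost its call without control replicate 2 (adjusted p = 0.12). CTF1, a gp130 cytokine, had a log2 fold change of -0.69 with KO-1 (adjusted p = 0.025) and -0.59 with KO-2 (0.069), and the mean of -0.64 was called (0.019), a call lost without control replicate 1 (0.13) or 2 (0.19) or KO-1 replicate 2 (0.055). The number that rose was 2 without control replicate 2 and 6 without KO-2 replicate 1.

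Receptors of the 10 ligands were sparse: of 11 listed, 4 had rows, and 2 rose, 0 fell, with a median of 0.00. IL6R rose by 0.86 ± 0.18 (SE, adjusted p = 0.0054) but lost the call without control replicate 2 (0.11). IL6ST, the gp130 gene, rose with KO-1 by 0.27 (adjusted p = 0.0040) and was not called with KO-2 (0.10, 0.22). Its mean over both guides was 0.19 ± 0.05 (SE, adjusted p = 0.013), which lost the call without either control library (0.14 and 0.13) or either KO-1 library (0.061 and 0.056). IL18R1 (-0.47, adjusted p = 0.18) and LIFR (-0.18, 0.42) were not called. Among 7 tested of 10 genes for processing or binding of the ligands, 3 rose and 2 fell (median 0.19). They included ADAM10, the sheddase of CXCL16, at 0.26 ± 0.04 (SE, adjusted p = 0.00082), and RHBDF2, an iRhom that escorts ADAM17, at -0.46 ± 0.10 (0.0054), whose call was lost without control replicate 1 (0.11). ADAM17 itself had a mean of 0.23 ± 0.06 (SE, adjusted p = 0.013), called with KO-2 (0.28, 0.016) and not with KO-1 (0.17, 0.071). The call for the mean was lost without the variance trend or when any 1 control or KO-1 library was left out. RHBDF1 was called with KO-1 (0.65, adjusted p = 0.0015) and not with KO-2 (0.31, 0.075), and its mean of 0.48 ± 0.09 (SE, adjusted p = 0.0037) lost the call without control replicate 2 (0.066), where the list's counts were 1 risen and 1 fallen. Without control replicate 1 they were 2 and 0, and 1 fell without either KO-1 library.

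In the list of NF-kB subunits, kinases and inhibitors 10 of 23 genes rose and 1 fell (median 0.24). The 4 with the smallest p all encode brakes on the pathway: NFKBIA (IkB alpha) rose by 0.68 ± 0.05 (SE, adjusted p = 1.5e-05), TNIP1 by 0.63, CYLD by 0.65 and TNFAIP3 (A20) by 0.62. The rise was not limited to brakes. Genes of NF-kB subunits were also among the 10 that rose, and some other inhibitor genes were not called. The number that rose ran from 7 without control replicate 2 to 16 without KO-2 replicate 1, where over all genes 825 and 2906 were called higher. Of 17 transcription factors known as partners at such promoters 13 rose and 0 fell (median 0.50), 10 to 13 in each run that left out 1 library. STAT3 rose by 0.58 ± 0.05 (SE, adjusted p = 1.8e-05), FOSL1, an AP-1 subunit, by 1.38 ± 0.11 (2.1e-05), CEBPD by 0.58 and JUND by 0.51.

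Of 14 AU-rich element and cytokine mRNA decay factors 5 rose and 3 fell (median 0.13). ZFP36L1, which destabilises such mRNAs, rose by 0.39 ± 0.05 (SE, adjusted p = 0.00032), and TIA1 fell by 0.36, a call lost without control replicate 1 (0.055). Without control replicate 1 the counts were 1 risen and 0 fallen, without control replicate 2 they were 2 and 1, without KO-1 replicate 1 they were 3 and 2, and without KO-1 replicate 2 they were 3 and 1. Of 20 tested upstream receptors and adaptors 3 rose and 6 fell (median 0.14). IL1RAP, the accessory chain of the IL-1 receptor, rose by 0.71 ± 0.08 (SE, adjusted p = 0.00014) and TAB2 by 0.40, while the kinase IRAK1 fell by 0.29. Without control replicate 1 or 2 the counts of that list were 2 risen and 1 fallen, without KO-1 replicate 1 or 2 they were 2 and 2 or 2 and 3, and without KO-2 replicate 1 or 2 they were 6 and 6 or 8 and 6. Of 10 tested STAT3 feedback and target genes 1 rose and 1 fell (median 0.10): PIAS3, an inhibitor of STAT3, fell by 0.62 (adjusted p = 0.00057), and PIM1 had a mean of 0.22 (0.040) with neither guide called alone (0.077 with KO-1, 0.084 with KO-2), a call lost when any 1 control or KO-1 library was left out. Without either KO-2 library 3 rose and 2 fell. Among the 7 markers of the line itself 5 rose and 0 fell (median 0.30), KRT19 by 0.47 ± 0.05 (SE, adjusted p = 0.00012), and 3 rose without control replicate 2. Whether the change in these markers bears on the 10 genes was not tested.

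**Figure D5:**
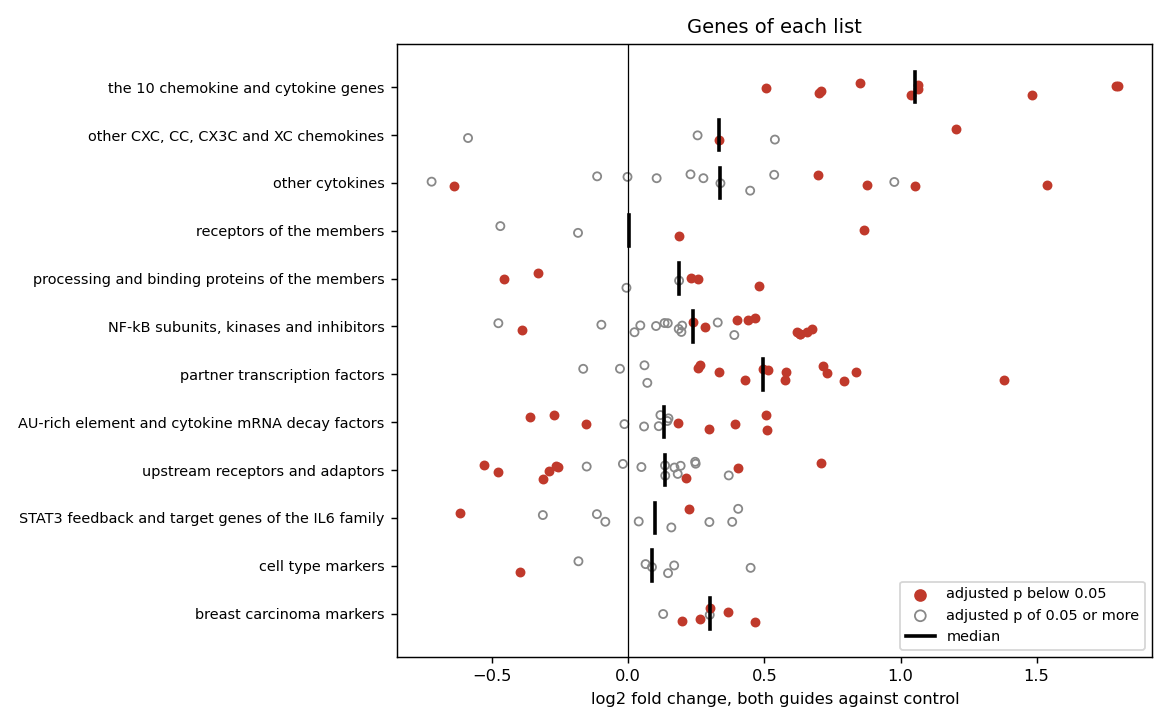
Log2 fold change for both guides against control on the x axis, with 1 dot per tested gene in each list on the y axis (red for an adjusted p below 0.05, open grey otherwise) and the list's median as a black bar. The 10 chemokine and cytokine genes have a median of 1.05, and the medians of the other lists lie between 0.00 (receptors) and 0.50 (partner transcription factors).

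The patterns most like CXCL8 and CSF1 were sought by the root-mean-square difference of control-centred log2 CPM over the 6 libraries, among 12127 genes. Nearest to CXCL8 were INPP5D (0.123), UCA1 (0.217), ANKRD1 (0.237) and APOBEC3C (0.285), where the median over genes was 1.5. Of the 10 genes CXCL1 (0.171) and CCL20 (0.28) were the closest to CXCL8 by the same measure. INPP5D, which encodes the phosphatase SHIP1, had log2 fold changes of 2.03 with KO-1 and 1.30 with KO-2. Nearest to CSF1 were IL1RAP (0.0434), IPPK (0.0452), PAPSS2 (0.0464), LSG1 (0.0524) and METTL16 (0.0553), against a median of 0.602. Of the 10, IL18 (0.172) and CXCL2 (0.188) were the closest to CSF1. This likeness rests on 6 libraries in 3 groups.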

How the data were processed

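RNA from CAL51 cells (polyA RNA, bulk libraries) was measured in 6 libraries, 2 in each of 3 groups assigned from the sample titles. Per the submitters' processing notes the tools included fastp, STAR (2.7), featureCounts from Subread (2.0) and edgeR, with hg38 as the human build. The sources used here do not give the counting annotation or strand setting. The authors deposited expression as log2 CPM for 14788 genes. A second table deposited by the authors holds log2 fold changes, p-values and false discovery rates for their own comparisons, and is used only where named. The log2 CPM values gave whole reads in 100% of cases (tolerance 0.01 reads) after subtracting a prior of 0.102 CPM, and 1 read was worth 0.0383 to 0.0767 CPM. Among recovered values of 1 to 50 reads, 64.0% were even numbers, against 50.9% from 1001 reads upward; the cause was not tested. Fold changes carry that prior on the log2 scale and so understate the change of low genes.

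Genes with log2 CPM of at least 0 in at least 2 libraries were kept (13765). limma (3.58.1, in R 4.3.3) was fitted to the deposited log2 CPM with group means over all 6 libraries, moderated variances with a mean-variance trend, 3 residual and 8.02 prior degrees of freedom, and Benjamini-Hochberg adjustment over all genes kept. Each guide and their mean were set against control, and KO-2 was set against KO-1. The fit was tested on simulated data for both guides against control, with the same spread set for every library. That test does not cover the wider spread of the KO-2 libraries, each guide alone or the comparison between the guides. Gene positions, coding sequences and 3′ ends came from GENCODE release 29 (GRCh38), and promoter sequences from RefSeq (GRCh38.p14), which matched 6 of the 10 genes. Alternatives covered filters, scaling, the variance trend, a replicate block and each library left out. From each other list, genes with values were taken from up to 4 tested genes with the smallest p for both guides. Not all of those genes are given. Reads of further genes are given only where stated to be under the filter. The 5 genes of most similar pattern to CXCL8 and to CSF1 were also named, of which 1 is not reported here. The 10 genes and the lists were chosen with earlier results of these data known. Mouse and single-cell data of the series were not used here.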

Additional observations from a re-analysis of the deposited data

Results flagged for a closer look

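CXCL8 and CCL20 differed between the KO-1 and KO-2 libraries by the test of that difference. Both calls were lost when either KO-1 library was left out or the mean-variance trend was not used. Guide, clone and culture cannot be told apart between these groups of 2 libraries. The log2 difference, KO-2 minus KO-1, was -0.65 for CXCL8 (adjusted p = 0.033) and -0.73 for CCL20 (adjusted p = 0.0052, limma), and both genes were higher than control with each guide. For CX3CL1, another chemokine gene, it was -0.60 (adjusted p = 0.044), with KO-1 called higher than control and KO-2 not called. In all 3 genes the 2 KO-1 libraries lay above the 2 KO-2 libraries, as they did in 21.9% of all genes. The 3 genes were picked by the test of that same difference, so this order adds no separate support.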

How the results depend on the processing

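In all 10 genes every knockout library lay above both control libraries, so leaving out 1 library could not reverse a direction against control. Changes of filter, variance trend or replicate block left the fold changes themselves unchanged. With these limits, in 14 alternative settings (140 values per comparison) the 10 genes stayed above control in all values of each of the 3 comparisons with control. Of these values 4 lost their call for both guides, 7 for KO-1 and 10 for KO-2, where 1 gained it, and between the guides 8 lost and 4 gained it. Without the mean-variance trend the counts of called genes fell from 4068 to 2201 for both guides, from 4089 to 2345 for KO-1, from 2329 to 162 for KO-2 and from 157 to 1 between the guides. In that setting 9 of the 10 were called for both guides, CXCL2 missing it at an adjusted p of 0.052, and 5 of the 10 were called for KO-2 (CXCL3 0.070, CXCL16 0.089, IL6 0.070 and LIF 0.070 were lost) and 0 between the guides (CXCL8 0.21, CCL20 0.21), where 5 had an unadjusted limma p below 0.05. CXCL16 was lost for KO-1 (0.054). The cause was not tested. Leaving out 1 library gave 1286 (without control replicate 1) to 6075 (without KO-2 replicate 2) called genes for both guides, 1694 (without control replicate 1) to 6255 (without either KO-2 library) for KO-1, 362 (without control replicate 1) to 4565 (without KO-2 replicate 2) for KO-2, and 0 (without either KO-1 library) to 3170 (without KO-2 replicate 2) between the guides. Of the 10, this left 9 to 10 called for both guides, 8 (without control replicate 2 or KO-1 replicate 2) to 10 for KO-1, 6 (without either control library) to 10 (without KO-2 replicate 2) for KO-2, and 0 (without either KO-1 library) to 4 (without either KO-2 library) between the guides. Without KO-1 replicate 1 or 2, where limma called 0 genes between the guides, 1286 and 1344 genes, and 5 and 4 of the 10, had an unadjusted p below 0.05. The CX3CL1 difference between the guides was lost with the replicate block (adjusted p = 0.067) and without the trend (0.22). A group of 1 library was assumed to vary like the others. With library medians set equal, the calls split 2575 higher to 1598 lower for both guides (61.7% higher in place of 49.4%), 2535 to 1653 for KO-1 (60.5%, was 49.0%) and 1575 to 866 for KO-2 (64.5%, was 51.6%), with no call of the 10 changed. Same-numbered replicates did not deviate together over the genes tested (r -0.05, 0.04 and -0.04), and the labels give them only a number. These correlations cannot exclude a shared step that affected few genes. A fit with the replicate number as a block called 3782, 3829, 2054 and 105 genes in the 4 comparisons and 10, 10, 9 and 2 of the 10 genes. limma-voom on the recovered reads, chosen after seeing the data, called 4608, 4521, 2637 and 167 genes and again 10, 10, 9 and 2. The planned count tests with edgeR and DESeq2 were not run, since the deposited unit is log2 CPM. Depth limits CXCL2, CXCL3 and IL6 most, at 78 to 192 reads a library.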
